A study of Mus musculus with 4 samples.

Results

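The interleukin 31 receptor subunit Il31ra, its partner Osmr, the related gp130-type receptors Il6st, Lifr, Il6ra and Il11ra1, the kinases Jak1 and Jak2, the transcription factor Stat3 and the feedback inhibitor Socs3 were described in RNA from bulge cells, which include the stem cells of hair follicles. These 10 genes were taken by name from 55536 genes in the count table. They were chosen as the family and signalling partners of Il31ra, and Il31ra itself was chosen because its level had been noted as lower in knockout mice. Its difference between the genotypes is therefore given as a description, with no test. All 10 passed the filter on low counts, which left 14259 genes for testing.

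The series set 2 libraries from mice with an endothelial knockout of Alk1 (gene Acvrl1, a receptor of the BMP and TGF-beta family) against 2 libraries from control littermates, all on a C57BL/6 background. Knockout mice carried floxed Alk1 alleles and Cdh5CreERT2, a Cre recombinase that tamoxifen switches on and that the Cdh5 promoter directs to endothelial cells. Controls had no Cre, and the sources used here do not say whether they carried floxed alleles. Both groups received tamoxifen, at 100 µg per g of body weight into the peritoneum, on postnatal day 17, and skin was taken on postnatal day 20. The titles number the mice 1 and 2 within each group, and whether a library pools animals or how bulge cells were isolated is not given, so p-values measure only the spread between these samples.

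Receptors of this family have no enzyme activity of their own. A cytokine brings receptor chains together, JAK kinases bound to their tails become active, and STAT proteins are phosphorylated and move to the nucleus, where they switch on genes that include the inhibitor Socs3. The chain Il6st (gp130) is shared by the receptors of interleukin 6, interleukin 11, leukaemia inhibitory factor and oncostatin M, while Il31ra pairs with Osmr and not with gp130. In skin, interleukin 31 from T helper cells is known for causing itch through sensory neurons, and in mouse resting follicles oncostatin M is known to hold stem cells quiescent through Osmr, JAK and STAT5 proteins.

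Il31ra (ENSMUSG00000050377) lies on the minus strand of chromosome 13 at 112519898 to 112594360 (GRCm38). Il6st lies beside it on the plus strand at 112464070 to 112510086, with 9811 bases between the gene bodies. Their sequences before the start, and that of Socs3 on chromosome 11, are shown because Il31ra and Il6st are neighbours with different values and because Socs3 is the standard readout of this pathway. Each run holds the 250 bases before a RefSeq start site (GRCm38.p6), 5′ to 3′ on the strand of the gene, and capitals mark TTCNNNGAA, the letters of a STAT binding motif, which reads the same on both strands.
Il31ra, chr13:112580663-112580912, minus strand: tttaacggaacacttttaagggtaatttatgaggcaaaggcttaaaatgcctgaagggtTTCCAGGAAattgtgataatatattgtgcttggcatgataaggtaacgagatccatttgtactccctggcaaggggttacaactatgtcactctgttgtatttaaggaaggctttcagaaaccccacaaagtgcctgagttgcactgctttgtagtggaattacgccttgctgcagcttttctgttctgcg
Il6st, chr13:112463820-112464069, plus strand: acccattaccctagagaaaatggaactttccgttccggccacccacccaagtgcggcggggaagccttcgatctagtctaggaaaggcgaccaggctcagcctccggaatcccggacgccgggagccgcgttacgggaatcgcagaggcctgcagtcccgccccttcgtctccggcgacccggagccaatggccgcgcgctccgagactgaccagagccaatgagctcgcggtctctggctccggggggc
Socs3, chr11:117969367-117969616, minus strand: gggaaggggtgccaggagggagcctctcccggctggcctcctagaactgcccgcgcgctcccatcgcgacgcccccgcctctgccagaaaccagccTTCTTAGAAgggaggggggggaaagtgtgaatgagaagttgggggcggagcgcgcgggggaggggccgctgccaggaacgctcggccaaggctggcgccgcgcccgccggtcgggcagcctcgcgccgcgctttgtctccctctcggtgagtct
The motif began 191 bases before the Il31ra start, as TTCCAGGAA, and 154 bases before the Socs3 start, as TTCTTAGAA. The table held 12 windows for the 10 genes, and the motif stood in the windows of these 2 genes. It stood in 7.02% of all 32851 windows of that length. The Il31ra window held 4 CG steps and 42% G or C, against 26 CG steps and 66% in the Il6st window. A match of letters is no binding site, and no binding was measured here. The annotated 5′ end of the Il31ra gene body in GENCODE, at 112594360, lies upstream of this RefSeq start. That of Socs3, at 117970047, also does, by a much shorter distance. The windows of Il31ra and Socs3 thus lie inside their GENCODE gene bodies, while the Il6st window ends just before its own.

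Libraries held 22261317 and 21237843 counts in knockouts 1 and 2, and 16326906 and 29130974 counts in controls 1 and 2. Acvrl1 measured 17.9 and 23.1 CPM (counts scaled to an effective library size of 1000000) in knockouts and 21.6 and 24.3 CPM in controls (log2 fold change -0.16 ± 0.19 SE, edgeR adjusted p = 0.76), which does not check the labels, since deletion was aimed at endothelium. All 10 bulge keratinocyte markers had counts in each library and none passed the test. Krt15 measured 36017 and 34786 CPM in knockouts and 29088 and 34397 CPM in controls. At an unadjusted edgeR p below 0.05, Krt14 was higher (log2 fold change 0.58 ± 0.17) and Tcf7l2 lower (-0.35 ± 0.14). Over all tested genes, 4.8% were higher and 5.94% lower at that p. Krt14 measured 6879 and 5519.5 CPM in knockouts and 4594 and 3703 CPM in controls. Krt14 and Tcf7l2 were named with their values known. Summed levels of 8 markers of differentiated interfollicular keratinocytes were 8353 and 3870 CPM in knockouts and 12717 and 4362 CPM in controls. Sebocyte markers summed to 125 and 60.5 CPM in knockouts and 225 and 90.9 CPM in controls. Library 1 thus stood above library 2 within both groups for both marker lists. In edgeR's quasi-likelihood test with Benjamini-Hochberg adjustment, 1 of 14259 genes passed the threshold of 0.05, which is 0.00701% of those tested. It was the ribosomal protein pseudogene Rps26-ps1, higher in knockouts, whose counts could be shared with its parent gene Rps26.

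Il31ra measured 177 and 185 CPM in knockout libraries and 483 and 528 CPM in control libraries. Both knockouts lay far below both controls, while libraries of 1 genotype lay close together: knockout 2 was 1.04 times knockout 1, and control 2 was 1.09 times control 1. The fitted log2 fold change was -1.48 ± 0.12 (SE, n = 2 each), so the knockout level was 64.1% below the control level. In bulk RNA, fewer cells that carry a transcript and less of it per cell cannot be told apart. These values rest on 3856 and 3864 counts in knockouts and 8062 and 15582 counts in controls. Of all tested genes, 23.6% had both knockouts below both controls, and 2.24% had a log2 fold change of -1 or lower. Over all tested genes, 86 had a lower log2 fold change than Il31ra. Among 4114 genes with a mean of at least 50 CPM, 2 did. They were Zbtb16, a transcriptional repressor (-2.33 ± 0.65), and Nrep (-1.51 ± 0.25), both picked by this comparison after the values were seen. By mean CPM, Il31ra ranked 951 among tested genes in knockouts and 232 in controls.

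**Figure D1:**
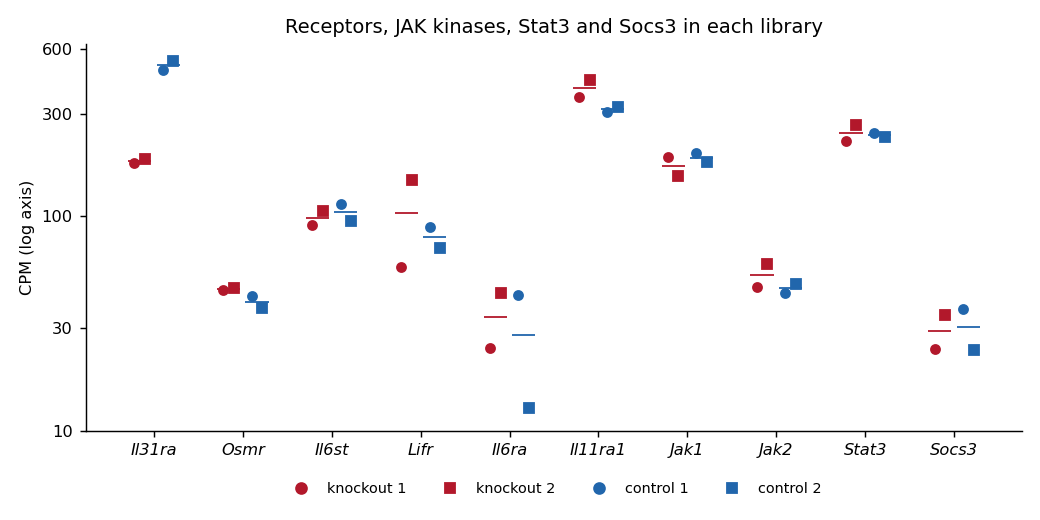
Level of each of the 10 genes in CPM (log axis) in the 2 knockout libraries (red) and the 2 control libraries (blue), with circles for library 1, squares for library 2 and short lines for group means. The Il31ra points sit at 177 and 185 CPM in knockouts and at 483 and 528 CPM in controls, the widest gap between groups among the 10 genes.

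Markers of other cells were set beside the Il31ra values. Within each group Il31ra was slightly lower in library 1, where the interfollicular and sebocyte sums were higher. Fibroblast and dermal papilla markers summed to 136 and 141 CPM in knockouts and 183 and 233 CPM in controls, with the same order of libraries as Il31ra. Col1a1 made up most of this sum, at 89.5 and 75.3 CPM in knockouts and 117 and 148 CPM in controls. Its order within knockouts was thus the reverse of that of Il31ra, and the order of the sum was not shared by all its genes. Col1a2, next in level, measured 43.8 and 56.5 CPM in knockouts and 62.3 and 80.9 CPM in controls, in the order of Il31ra. Lum had no count in controls. Of the 8 fibroblast and dermal papilla markers, 5 were tested, with 3 below 0 and 2 above (Col3a1 at 0.84 and Dcn at 1.03). None passed the edgeR test. At an unadjusted edgeR p below 0.05, 2 were lower, Col1a1 (-0.69 ± 0.16) and Col1a2 (-0.52 ± 0.19), and 0 higher. Over all tested genes, 5.94% were lower and 4.8% higher at that p. Melanocyte markers summed to 86.4 and 90.3 CPM in knockouts and 114 and 135 CPM in controls, again in the order of Il31ra. Mitf made up most of that sum, with 71.6 and 74.5 CPM in knockouts and 104 and 117 CPM in controls. Dct, next in level, measured 11.1 and 11.4 CPM in knockouts and 7.24 and 11.2 CPM in controls, which was a different order. Of the 8 melanocyte markers, 6 were tested, with 4 below 0 and 2 above. All 8 interfollicular markers and 6 of 7 tested sebocyte markers had log2 fold changes below 0, beside 52.5% of all tested genes. Their medians were -0.54 and -1.09, and none of these markers passed the edgeR test. Both knockouts lay below both controls for 0 interfollicular markers and 1 sebocyte marker, Scd3 (-1.95 ± 0.45), against 23.6% of all tested genes. All 7 markers of the upper follicle and inner bulge had log2 fold changes above 0, with a median of 0.23, and summed to 2496 and 2355 CPM in knockouts and 1891 and 1707 CPM in controls. Among them Krt17, a keratin of the outer root sheath, measured 720.2 and 845 CPM in knockouts and 555 and 483 CPM in controls (0.59 ± 0.14, edgeR adjusted p = 0.43). Krt17, Mitf, Dct, Scd3, Col1a1, Col1a2, Col3a1 and Dcn were singled out with their values known. The part of these cells in the Il31ra values was not tested. Sensory neurons, a known site of Il31ra, were scarcely represented: Nefl and Scn9a had no count in any library, and 8 markers of sensory neurons and Schwann cells together summed to 3.77 and 5.70 CPM in knockouts and 4.13 and 6.54 CPM in controls. Of 8 mast cell, basophil and eosinophil markers, 6 had no count in any library. Macrophage and dendritic cell markers summed to 62.7 and 70.3 CPM in knockouts and 59.7 and 52.4 CPM in controls. All 5 tested lay above 0, with a median of 0.18. T cell markers summed to 28.3 and 18.9 CPM in knockouts and 19.2 and 19.5 CPM in controls. Of 5 tested, 4 lay above 0 and 1 below, with a median of 0.72. Both knockouts lay above both controls for 4, against 21.3% of all tested genes. At an unadjusted edgeR p below 0.05, 2 were higher, against 4.8% of all tested genes. Endothelial markers summed to 6.30 and 19.8 CPM in knockouts and 24.0 and 7.55 CPM in controls. Of 4 tested, 3 lay below 0 and 1 above. No marker in these 3 lists passed the edgeR test.

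A ratio within a library does not depend on how libraries are scaled. Per kilobase of exon, Il31ra stood 8.32 and 8.55 times above Osmr in knockouts and 24.2 and 30.2 times above it in controls. Relative to Il6st, Il31ra stood at 3.83 and 3.43 times in knockouts and 8.27 and 10.9 times in controls. Against Lifr the ratio was 5.79 and 2.38 in knockouts and 10.3 and 14.1 in controls. The ratio to Il11ra1, the chain that binds interleukin 11, changed sides: 0.387 and 0.338 in knockouts, against 1.24 and 1.28 in controls. Relative to Krt15, a keratin of bulge cells, the log2 ratio per kilobase was -9.35 and -9.24 in knockouts and -7.60 and -7.71 in controls. The 2 groups did not overlap for any of these 5 ratios, which all have Il31ra as numerator. Il31ra was chosen for its lower level in knockouts, so this separation is a description and not 5 separate results. The difference in log2 ratio between genotypes, knockout minus control, ran from -1.39 against Il6st to -1.80 against Il11ra1, and was -1.49 against Krt5. Of the summed level per kilobase of the 6 receptors, Il31ra made up 23.6% and 20.2% in knockouts and 47.1% and 50.2% in controls.

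**Figure D2:**
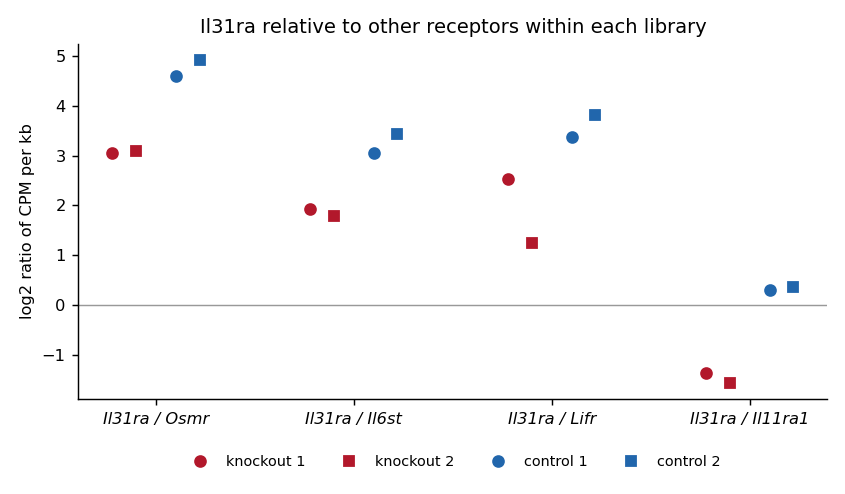
Log2 ratio of Il31ra to Osmr, Il6st, Lifr and Il11ra1 within each library, in CPM per kilobase of exon, with knockouts in red and controls in blue. Both knockout points lie below both control points for each of the 4 partners, and the ratio to Il11ra1 is below 0 in knockouts and above 0 in controls. All 4 ratios share Il31ra, which was chosen for its lower level in knockouts.

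Of the other 9 genes, none passed the threshold in edgeR, against 0.00701% of all tested genes, and none had an unadjusted p below 0.05 in the main edgeR test, against 5.94% of tested genes as lower and 4.8% as higher. DESeq2 called none of the 9, against 0.716% of the genes to which it gave an adjusted p, and limma-voom also called none. Their log2 fold changes were above 0 in 6 and below 0 in 3, with a median of 0.20, beside -0.02 over all tested genes. Both knockouts lay above both controls for 2 of the 9, against 21.3% of tested genes, and below both controls for 0 of the 9, against 23.6%.

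Osmr (chromosome 15, 6813577 to 6874969), the signalling partner of Il31ra and the oncostatin M receptor chain, measured 45.5 and 46.2 CPM in knockouts and 42.6 and 37.3 CPM in controls. Both knockouts lay above both controls, and the log2 fold change was 0.20 ± 0.13 (SE; edgeR adjusted p = 0.60) with a 95% interval of -0.12 to 0.52. It was 0.40 after a trend with gene length and GC was removed (adjusted p = 0.52) and 0.13 without control 2. The interval holds no decrease as large as the one measured for Il31ra. That value belongs to a gene chosen for its difference, so this is no test of Osmr against Il31ra. Il6st, the shared gp130 chain, measured 90.6 and 106 CPM in knockouts and 114 and 95.03 CPM in controls, and the groups overlapped (-0.09 ± 0.15, adjusted p = 0.83, interval -0.45 to 0.27). Its sign turned without knockout 1 (0.01) and without control 1 (0.05).

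Lifr, the receptor of leukaemia inhibitory factor, on chromosome 15 at 7090614 to 7197489, measured 58.1 and 148 CPM in knockouts and 88.7 and 71.0 CPM in controls. The knockout libraries disagreed: number 2 was 2.55 times number 1, one above and one below both controls. The log2 fold change of 0.37 ± 0.41 (adjusted p = 0.75) became 0.89 without knockout 1 and -0.45 without knockout 2, so it rests on which knockout is kept. Il6ra, the interleukin 6 binding chain, measured 24.2 and 43.7 CPM in knockouts and 42.9 and 12.8 CPM in controls. Here the controls disagreed, with number 1 at 3.35 times number 2, and the log2 fold change of 0.30 ± 0.56 (adjusted p = 0.86) was -0.32 without control 2, -0.19 without knockout 2, 0.67 without knockout 1 and 1.41 without control 1.

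Il11ra1 measured 361 and 432 CPM in knockouts and 307 and 324 CPM in controls. Both knockouts lay above both controls, and the log2 fold change was 0.33 ± 0.14 (SE; edgeR adjusted p = 0.46), with an interval of -0.01 to 0.66. It was 0.45 without knockout 1 and 0.19 without knockout 2. Genome copies named Il11ra2 resemble this gene, and the 3 copies in the table held 1 count in all. Reads that match several copies could have been split or dropped. These counts cannot show whether Il11ra1 lost reads, since no counting tool is named. An exon of Il11ra1 shares 8 bases with Ccl27a on the other strand.

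**Figure D3:**
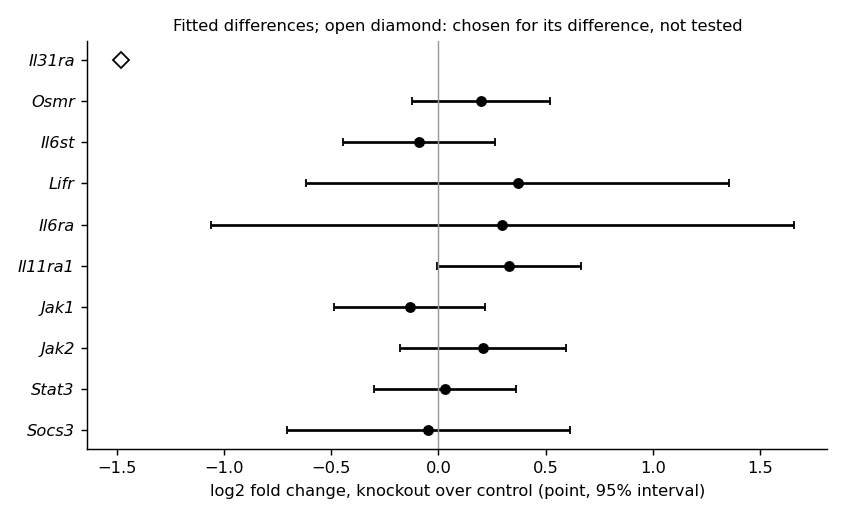
Log2 fold change, knockout over control, from the edgeR fit for the 10 genes, with 95% intervals for the 9 genes that were not chosen for their difference. Each of the 9 intervals includes 0, and the Il31ra point (open diamond, -1.48) lies outside all of them. That position is a description and no test, since Il31ra was chosen for its difference.

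Among signalling components, Jak1, the kinase used by both Il31ra and gp130, measured 188 and 154 CPM in knockouts and 197 and 179 CPM in controls (-0.13 ± 0.14, edgeR adjusted p = 0.74). Jak2, which Osmr and gp130 also use, measured 46.9 and 59.6 CPM in knockouts and 43.8 and 48.4 CPM in controls (0.21 ± 0.16, adjusted p = 0.65), and its log2 fold change was 0.37 without knockout 1 and 0.02 without knockout 2. Stat3, the main transcription factor of the family, measured 224 and 267 CPM in knockouts and 246 and 234 CPM in controls, where the control values fell inside the range of the knockouts (0.03 ± 0.14, adjusted p = 0.94, interval -0.30 to 0.36). Socs3, whose product binds gp130 and JAK and ends signalling, measured 23.9 and 34.6 CPM in knockouts and 36.9 and 23.7 CPM in controls. The spread within each genotype was as wide as that between them, and the log2 fold change was -0.05 ± 0.27 (adjusted p = 0.96, interval -0.70 to 0.61). Its sign turned without knockout 1 (0.20) and without control 1 (0.30). The Socs3 to Stat3 ratio per kilobase was 0.352 and 0.428 in knockouts and 0.495 and 0.334 in controls, overlapping between groups.

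Per kilobase of exon, the order of the 10 genes differed between genotypes at the top. In knockouts Il11ra1 came first, at 88.7 ± 11.2 CPM per kilobase (SD, n = 2), followed by Il31ra at 31.9 ± 0.97, Stat3 at 25.8 ± 3.2 and Jak1 at 23.7 ± 3.3. In controls Il31ra came first at 89.0 ± 5.6, followed by Il11ra1 at 70.6 ± 2.7, Jak1 at 26.0 ± 1.8 and Stat3 at 25.2 ± 0.84. Stat3 and Jak1 overlapped in range in both groups and so were not ordered. In knockouts the ranges of Jak2, Socs3, Lifr and Il6st overlapped from each gene to the next, and in controls those of Socs3, Il6st and Jak2 did. Osmr and Il6ra were the lowest pair in both groups, at 3.79 ± 0.04 and 3.93 ± 1.60 in knockouts and 3.30 ± 0.31 and 3.22 ± 2.46 in controls, without separation from each other.

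The genes around Il31ra gave a local comparison. Within 500 kb of Il31ra and Il6st, the nearest tested gene beyond Il31ra was Slc38a9, a lysosomal amino acid transporter, at -0.03 ± 0.15 (log2 fold change ± SE; edgeR adjusted p = 0.94). The processed pseudogene Gm3226 shares 45 exon bases with the 5′ end of Il31ra, which is 0.793% of the exon length, and gave 0.17 ± 0.32 (adjusted p = 0.86). Ddx4, the germ cell helicase next to Il31ra, averaged 0.091 CPM and was not tested. No gene was tested on the far side of Il6st, where Ankrd55 averaged 0.20 CPM. At the other locus, Osmr and Lifr lie 215644 bases apart. Their outer neighbours were Rictor, a subunit of the mTORC2 kinase complex (-0.44 ± 0.14, adjusted p = 0.43), and Egflam, a matrix protein gene (0.17 ± 0.21, adjusted p = 0.77).

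**Figure D4:**
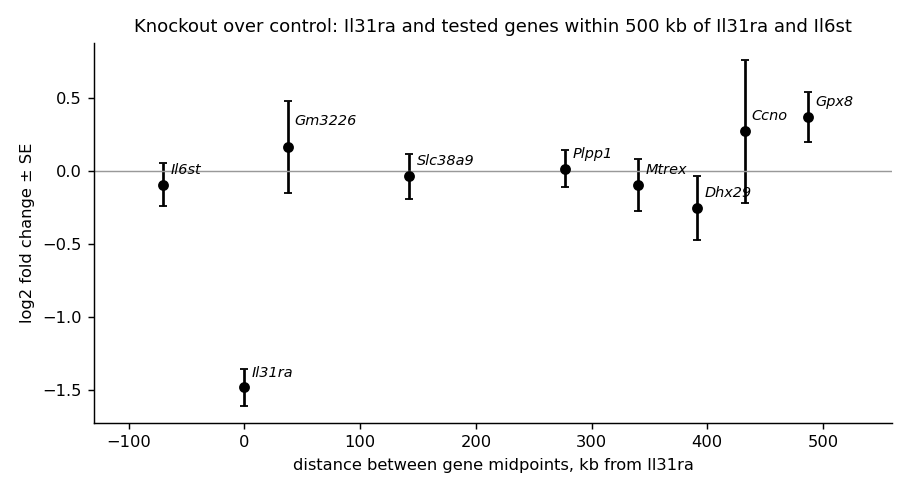
Log2 fold change ± SE, knockout over control, of Il31ra and the tested genes within 500 kb of Il31ra and Il6st, against the distance of gene midpoints from Il31ra in kb. Il31ra lies at -1.48, and the neighbours lie between -0.25 (Dhx29) and 0.37 (Gpx8).

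Most ligands of these receptors were scarce in bulge cell RNA. Il31, Il6, Il27 and Ctf2 had no count in any library, where 3 counts would be 0.138 and 0.144 CPM in knockouts and 0.180 and 0.102 CPM in controls, a limit that covers counting error only. Osm, made by macrophages and T cells, had 0 counts in both knockouts and 0 and 2 counts in controls. Of 12 ligand genes, 4 were tested and none passed in edgeR (none at an unadjusted p below 0.05, none of 4 with limma-voom, and none of the 2 to which DESeq2 gave an adjusted p). Over all genes, 0.00701% passed in edgeR and 0.716% in DESeq2. At the unadjusted edgeR p, 4.8% were higher and 5.94% lower. Ctf1 (cardiotrophin 1) gave -0.08 ± 0.17 and Lif 0.32 ± 0.60. Il11, the ligand of Il11ra1, measured 1.29 and 1.29 CPM in knockouts and 0.96 and 0.58 CPM in controls (0.78 ± 0.46, adjusted p = 0.56). Il31, Il6, Il27, Ctf2 and Osm were named after their counts were seen.

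Other receptors followed no single direction. Of 8 related long-chain receptors, 2 were tested, Il12rb2 (-0.35 ± 0.41) and Cntfr (0.40 ± 0.48), and Csf3r and the chromosomal copy of Il11ra2 had no count. Lepr averaged 0.12 CPM and Il12rb1 0.14 CPM over all libraries. Of 21 other receptors that use JAKs, 19 were tested and none passed in edgeR, with 1 higher and 1 lower at an unadjusted p below 0.05, none called by limma-voom and none of the 15 with an adjusted p in DESeq2. The shares of all tested genes at that p were 4.8% higher and 5.94% lower. The median log2 fold change of the 19 was -0.04, beside -0.02 over all tested genes. Il20rb, a chain for interleukins of the interleukin 20 family, measured 295 and 209 CPM in knockouts and 287 and 235 CPM in controls, and Il13ra1 231 and 158 CPM in knockouts and 200.4 and 204 CPM in controls. The prolactin receptor Prlr gave -0.36 ± 0.19 and the interferon receptor Ifnar1 -0.04 ± 0.12. Ifngr2 (0.54 ± 0.15) and Csf2ra (-0.91 ± 0.33), named after their values were seen, were the pair with an unadjusted p below 0.05.

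Of the other JAK and STAT genes, 7 of 8 were tested and none passed in edgeR, DESeq2 or limma-voom. At an unadjusted p below 0.05 there was 1, lower, against 5.94% of all tested genes. Their median was -0.23, with 6 of 7 below 0, beside 52.5% of all tested genes. Stat5b measured 54.8 and 48.9 CPM in knockouts and 63.9 and 63.1 CPM in controls (-0.29 ± 0.13, edgeR adjusted p = 0.47). Stat5a measured 27.9 and 28.0 CPM in knockouts and 32.3 and 35.3 CPM in controls (-0.28 ± 0.13, adjusted p = 0.50), so both knockouts lay below both controls for each of these factors, as they did for 23.6% of all tested genes, and neither passed. Stat5a shares 72 exon bases with Stat3 on the other strand. Jak3, the kinase of lymphocyte cytokine receptors, measured 19.3 and 13.7 CPM in knockouts and 30.3 and 30.1 CPM in controls (-0.87 ± 0.20, adjusted p = 0.43). It was picked out with its values known, and it passed in edgeR without a count filter (1.79% of genes did) and with the replicate number as a block (0.743% did). Stat6, used by interleukin 4 and 13, gave 0.24 ± 0.12 and Tyk2 -0.17 ± 0.12.

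All 20 negative regulators were tested, and none passed in edgeR or limma-voom and 1 in DESeq2, where 17 had an adjusted p. At an unadjusted p below 0.05 there were 0 higher and 4 lower, against 4.8% of all tested genes as higher and 5.94% as lower, and in DESeq2 0.716% of genes were called. Their median was -0.10, beside -0.02 over all tested genes. Ptpn11, a phosphatase that gp130 recruits, gave 0.11 ± 0.12, Ptpn1 0.17 ± 0.14 and Socs7 0.05 ± 0.16. Cbl, a ubiquitin ligase, measured 57.2 and 66.7 CPM in knockouts and 86.0 and 79.2 CPM in controls (-0.41 ± 0.13, edgeR adjusted p = 0.43). Its relative Cblb, in the list as a regulator of cytokine receptors, gave -0.88 ± 0.12 in the main edgeR test (adjusted p = 0.36). Cblb was called lower by DESeq2 and by edgeR without a filter (1.79% of genes were called) or with the replicate block (0.743%). Cbl and Cblb are in the longest of 10 equal classes of tested genes by exon length, whose median log2 fold change was -0.19. Socs4 (-0.46 ± 0.17) and Lnx1, under 1 CPM in each library, were the other genes with an unadjusted p below 0.05. Cblb, Socs4 and Lnx1 were picked out with their values known.

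Known STAT3 target genes showed no common direction: of 20 tested, 10 lay above 0 and 10 below, with a median of 0.00, and none passed in edgeR or limma-voom (1 higher and 0 lower at an unadjusted p below 0.05, against 4.8% and 5.94% of all tested genes). Mcl1, a survival factor, measured 420 and 392 CPM in knockouts and 397 and 403 CPM in controls. The receptor Tnfrsf1a gave -0.04 ± 0.12, the AP-1 factor Fosl2 -0.27 ± 0.12 and the cyclin Ccnd1 -0.09 ± 0.14. Cebpd, a transcription factor induced in acute phase responses, measured 111 and 136 CPM in knockouts and 74.9 and 71.6 CPM in controls (0.76 ± 0.14, edgeR adjusted p = 0.43). Cebpd was called higher by DESeq2, which gave an adjusted p to 18 of these genes and called no other. Over all genes with an adjusted p, DESeq2 called 0.716%. Cebpd also passed in edgeR without a filter (1.79% of genes did) and with the replicate block (0.743% did). It was picked out with its values known.

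**Figure D5:**
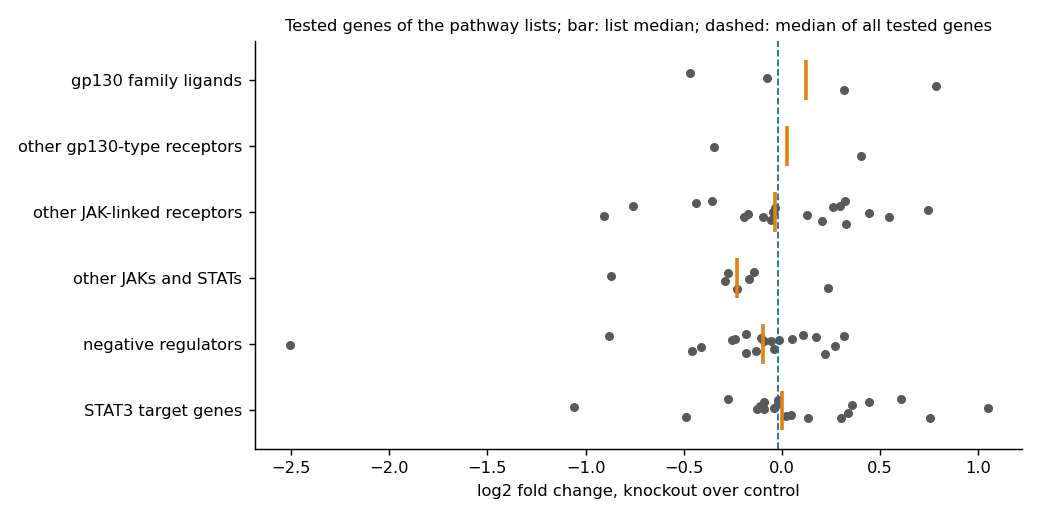
Log2 fold change, knockout over control, of the tested genes in 6 lists of the pathway, with an orange bar at each list median and a dashed line at the median of all tested genes (-0.02). List medians run from -0.23 (other JAKs and STATs) to 0.12 (ligands), and the gene farthest left is Lnx1, at under 1 CPM in each library.

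The genes most like Il31ra across the 4 libraries were found among 10253 protein-coding genes with a mean of at least 5 CPM, by the root-mean-square distance of log2 CPM centred on each gene's mean. The nearest were Sorl1, a sorting receptor (0.15), H60c, a ligand of an activating lymphocyte receptor (0.17), Nrp1, a coreceptor for semaphorins and VEGF (0.19), Stard4, a sterol carrier (0.22), Hmcn1, a matrix protein (0.23) and Mdga1, a membrane adhesion protein (0.23). Sorl1 measured 139 and 119 CPM in knockouts and 283 and 342 CPM in controls. H60c measured 29.5 and 24.5 CPM in knockouts and 58.4 and 78.3 CPM in controls. These genes share with Il31ra the libraries and the choice by pattern, so their likeness is a description. Exon lengths ran from 2817 bases (H60c) to 21191 (Hmcn1), beside 5673 for Il31ra, whose length class had a median log2 fold change of -0.05.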

How the data were processed

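Bulge cell RNA went into 4 polyA-selected directional libraries, 2 per genotype, per the labels' protocols. The authors deposited raw counts per Ensembl gene, with Trim Galore 0.6.0, cutadapt, FastQC, STAR 2.7.0e, DESeq2 1.26.0 and the builds GRCm38 and mm10 named in the submitters' processing notes. The sources used here name no counting tool, strand setting or annotation release, so overlapping and near-identical genes are uncertain. All 55536 identifiers matched GENCODE M21, which gave symbols, positions and exon lengths.

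Counts were analysed in R 4.3.3 with edgeR 4.0.16 (filterByExpr, TMM, robust quasi-likelihood test, no covariates, Benjamini-Hochberg adjustment over 14259 genes, threshold 0.05). CPM are counts scaled to a TMM effective library size of 1000000 over tested genes, log2 CPM used a prior count of 2, and standard errors came from the fold change and its F statistic. Replicates differed beyond sampling noise, with a chi-square over its degrees of freedom of 30.0 for knockouts and 22.8 for controls. The test was tried on simulated counts with known changes.

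Alternatives were normalization by RLE or upper quartile, no filter, at least 50 counts in 2 libraries, DESeq2 1.42.0, limma-voom (limma 3.58.1), the replicate number as a block, removal of a spline trend on exon length and GC content (4 degrees of freedom each), and each library left out in turn.

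Named genes were the 10 members, the 4 of highest mean CPM in each list and any past the threshold, the nearest tested neighbours, and the 6 genes most like Il31ra. Under this rule, 1 ligand gene is not reported here. Members and lists were chosen with earlier results of these data known.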

Additional observations from a re-analysis of the deposited data

How the results depend on the processing

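The log2 fold change of Il31ra was -1.40 after removal of the length and GC trend and ran from -1.54 to -1.39 with 1 library left out. The count of the other 9 genes past the threshold was 0 under all 12 alternatives. Over all tested genes the count, 1 in the main edgeR test, was 430 without a filter, 82 with DESeq2, 106 with the replicate block, 2 after trend removal, and between 1 and 65 with 1 library left out (65 without knockout 1, 4 without knockout 2, 2 without control 1). The cause was not tested. Several uncalled genes changed sign: Il6st was 0.10 after trend removal, and Socs3 was 0.0035 with limma-voom. With 1 library left out, Il6st ran from -0.20 to 0.047, Lifr from -0.45 to 0.89, Il6ra from -0.32 to 1.41, Jak1 from -0.29 to 0.0037, Stat3 from -0.10 to 0.15 and Socs3 from -0.34 to 0.30. Unadjusted p-values of Il11ra1 were 0.048 with RLE, 0.037 without a filter, 0.035 after trend removal and 0.0076 without knockout 1, that of Jak2 was 0.026 without knockout 1, that of Lifr 0.0018 without knockout 1 and 0.035 without knockout 2, that of Il6ra 0.0069 without control 1, and that of Osmr was 0.020 after trend removal. None passed after adjustment. The replicate block, whose numbers are no stated pairing (the correlation of same-numbered deviations was 0.12), gave -1.48 for Il31ra and changed no call among the other 9 genes, while Jak3, Cblb and Cebpd passed with it. With 2 libraries per genotype, differences as small as those of the other 9 genes could not be told from spread, and no single outlying library could be tested for.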
